A study of Rattus norvegicus with 9 samples.

Results

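Fibrinogen and 7 further plasma proteins of clotting and fibrinolysis were followed here through the RNA of their genes in rat blood. The 10 genes were taken by symbol: Fga, Fgb and Fgg for the chains of fibrinogen, F2, F5 and F9 for clotting factors, Plg for plasminogen, Serpinc1 for antithrombin, Vtn for vitronectin and Kng1 for kininogen. All 10 were found among the 18166 genes with a single symbol on the array, each with 1 transcript cluster, the unit for which the array gives 1 signal. Blood RNA of male Sprague-Dawley rats of 250 to 280 g had been hybridised to Affymetrix Rat Gene 2.0 ST arrays, with 3 biological replicates in each of 3 groups. QDBS rats (Qi deficiency blood stasis, a syndrome of traditional Chinese medicine) had been made to swim to exhaustion daily over 21 days before middle cerebral artery occlusion (MCAO), in which a filament closes the artery for 2 h. YDBS rats (Yin deficiency blood stasis) had been given hydrocortisone, 45 mg/kg a day for 13 days, and then epinephrine, 0.36 mg/kg for 1 day, before the same MCAO. The control (Sham) group had the surgery without the filament and neither pretreatment, and all blood was taken from the abdominal aorta after 24 h of reperfusion. No group had a pretreatment without MCAO or MCAO without a pretreatment, so the effects of the artery occlusion and of the pretreatments cannot be told apart. Rat ages are not given in the labels.

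These proteins circulate in plasma and most are made and secreted by hepatocytes, so their mRNA is typical of liver and not of blood cells. Thrombin, the active form of the F2 product, cuts fibrinogen into fibrin, the mesh of a clot. Factor IX acts upstream in the cascade and factor V is the cofactor of the complex that makes thrombin. Antithrombin inhibits thrombin and related proteases, plasminogen gives rise to plasmin, which dissolves fibrin, vitronectin binds and stabilises the plasminogen activator inhibitor PAI-1, and kininogen is a cofactor of contact activation and the precursor of bradykinin. Fibrinogen is also an acute-phase protein, whose genes in liver respond to interleukin-6. Plasma levels of these proteins were not part of the array data. The study measured fibrinogen in plasma separately and reported a higher content in both model groups than in control. RNA in blood is therefore no measure of plasma fibrinogen here. Plasma values of the other proteins were not available, so their RNA is not read as a measure of the protein either.

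Signals were log2 values of Robust Multi-chip Average (RMA), and one limma fit held all 9 arrays. Genes with a fold over 2 and a FDR under 0.05, adjusted by Benjamini-Hochberg for all 18166 genes, were called. FC is signed, with falls as negative values. Control replicate 2 stood apart from the other arrays: its correlation across genes was 0.883 to 0.895 with the model arrays, where control replicates 1 and 3 reached 0.937 to 0.950, and 0.963 to 0.965 with those controls, which correlated at 0.989 with each other. Genes are not independent replicates in these correlations, and the values of the 10 genes and of lists whose calls it changed are given without this array too. The median log2 FC of all genes was -0.15 in QDBS and -0.16 in YDBS, so a small negative value was common.

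Of the 10 genes, 5 were down-regulated in the QDBS group against control: Fgb, Fgg, F2, Plg and Vtn. The same 5 genes were down-regulated in the YDBS group. Over all genes tested 1.36% were called lower in QDBS and 0.919% in YDBS. Another 4 genes, Fga, F9, Serpinc1 and Kng1, were lower in both models with a FDR under 0.05 but with a fold under 2, and F5 alone had a positive log2 FC. That made 9 of 10 genes lower at a FDR under 0.05 at any fold, where the share over all genes was 22.9% in QDBS and 25.3% in YDBS. With the test that the methods of the study name it was 5 of 10 in each model, without Fgg, F9, Serpinc1 and Kng1. In 8 of 10 genes every array of either model lay below every control array, which held for 31.3% of all genes in QDBS and 33.3% in YDBS. Both comparisons share the 3 control arrays, so the second is no independent repeat of the first. In RNA of whole blood, fewer cells of a type and less RNA per cell cannot be told apart.

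**Figure D1:**
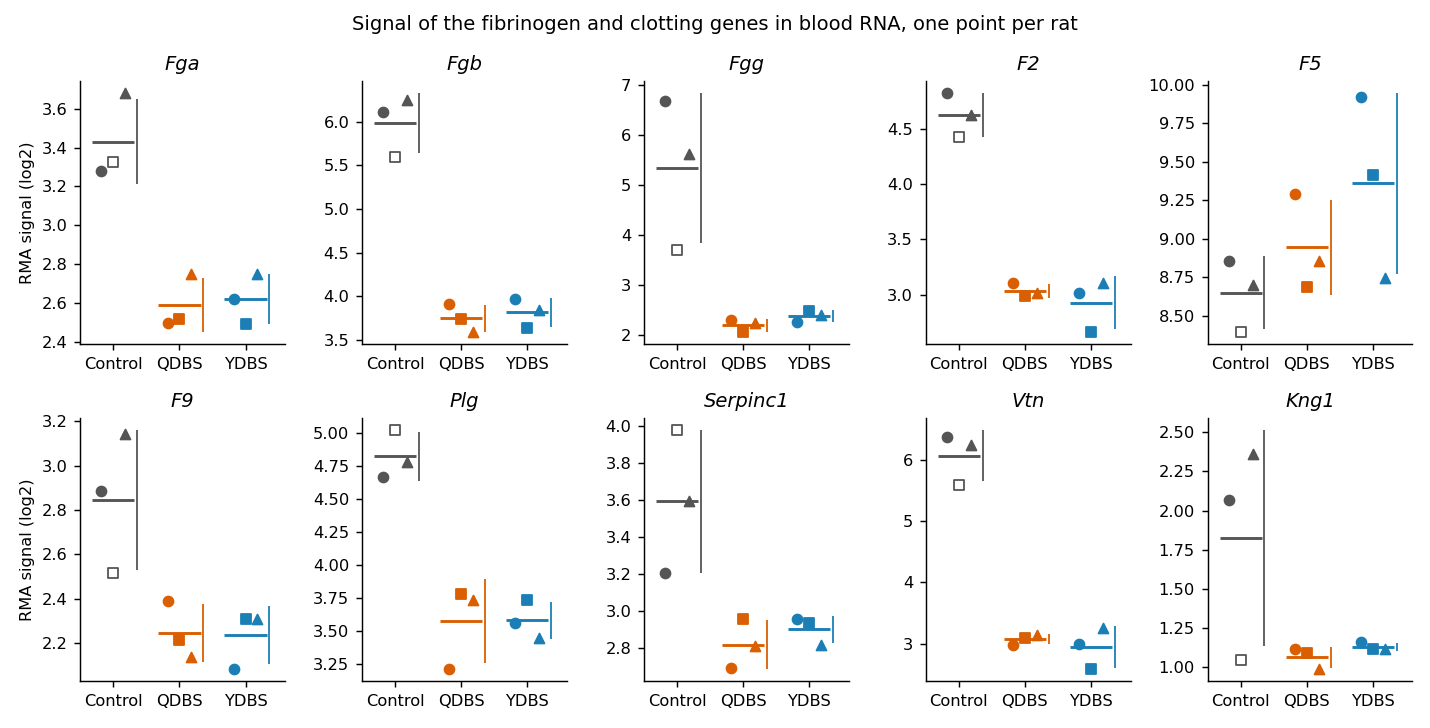
RMA signal (log2, vertical axes with their own ranges) of each gene in each rat of the control, QDBS and YDBS groups; circles, squares and triangles are replicates 1, 2 and 3, open squares control replicate 2, horizontal bars group means and vertical bars 1 SD to each side. Vtn, Fgb, F2, Fgg and Plg leave a gap of 0.88 to 2.32 between the lowest control array and the highest model array, while the arrays of F5 and Kng1 overlap.

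The 3 fibrinogen genes lie next to each other on rat chromosome 2 in the order Fgg, Fga, Fgb, with no other protein-coding gene between them, and Lrat and Plrg1 flank them. Their promoters are shown because these neighbours were lower together, and those of Vtn, which had the lowest log2 FC of the 10 genes in YDBS, and of F5, which did not fall, are set beside them. The sequences are RefSeq windows of build GRCr8 from 250 bases before to 30 bases after an annotated start: chr2:170671919-170672198 on the plus strand for Fga, chr2:170700846-170701125 on the minus strand for Fgb, chr10:63892532-63892811 on the plus strand for Vtn and chr13:79046407-79046686 on the plus strand for F5. For Fgg, chr2:170652833-170652958 on the plus strand, the stretch ends 30 bases into the gene as annotated. Capitals mark CTGGGA or its other strand TCCCAG, the core of the interleukin-6 response elements described in the rat fibrinogen genes, and GTTAAT or its other strand ATTAAC, part of the site that the liver factor HNF1 binds.
Fgg: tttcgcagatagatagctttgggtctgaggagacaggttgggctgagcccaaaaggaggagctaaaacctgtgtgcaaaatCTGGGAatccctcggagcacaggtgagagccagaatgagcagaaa
Fga: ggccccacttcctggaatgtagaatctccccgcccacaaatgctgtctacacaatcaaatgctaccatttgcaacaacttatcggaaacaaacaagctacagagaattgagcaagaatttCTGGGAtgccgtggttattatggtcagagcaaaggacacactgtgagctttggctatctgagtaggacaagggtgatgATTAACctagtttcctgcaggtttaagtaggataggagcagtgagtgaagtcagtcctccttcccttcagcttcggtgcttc
Fgb: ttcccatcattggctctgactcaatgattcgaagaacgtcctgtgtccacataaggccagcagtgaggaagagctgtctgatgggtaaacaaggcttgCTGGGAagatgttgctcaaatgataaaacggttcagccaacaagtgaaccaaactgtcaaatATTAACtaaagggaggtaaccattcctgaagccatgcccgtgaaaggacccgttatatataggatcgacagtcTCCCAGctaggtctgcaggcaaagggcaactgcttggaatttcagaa
Vtn: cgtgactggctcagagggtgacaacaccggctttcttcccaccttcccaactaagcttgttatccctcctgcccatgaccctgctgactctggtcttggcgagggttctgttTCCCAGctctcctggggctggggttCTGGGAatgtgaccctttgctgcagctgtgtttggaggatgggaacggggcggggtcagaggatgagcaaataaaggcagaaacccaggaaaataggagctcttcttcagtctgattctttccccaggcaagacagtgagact
F5: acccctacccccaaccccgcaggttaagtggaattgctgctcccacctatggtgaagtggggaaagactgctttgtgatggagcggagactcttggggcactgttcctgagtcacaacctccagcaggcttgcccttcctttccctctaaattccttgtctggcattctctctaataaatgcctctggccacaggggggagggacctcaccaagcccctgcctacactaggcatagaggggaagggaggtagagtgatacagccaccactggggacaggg
CTGGGA was found on either strand in the windows of 9 of 10 genes, all but F5, and in 28.3% of 33469 windows of all genes. Where counted from the annotated start, its first base lay at -152 and -17 in Fgb, at -130 in Fga and at -138 and -113 in Vtn. GTTAAT was found in 4 of 10 genes, Fga, Fgb, F2 and Plg, and in 7.0% of all windows. These are letter matches in a short window and no measure of binding, and the matches of both motifs did not overlap.

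Fgb, the beta chain of fibrinogen, had signals of 6.11, 5.59 and 6.24 in control replicates 1, 2 and 3, 3.91, 3.74 and 3.59 in the QDBS arrays and 3.97, 3.64 and 3.84 in the YDBS arrays. Each of the 6 model arrays was thus at least 1.62 below the lowest control array on the log2 scale. The FC was -4.71 in QDBS (log2 FC -2.24 with a standard error of 0.18, 3 rats in each group, limma FDR = 7.94e-06) and -4.49 in YDBS (log2 FC -2.17, limma FDR = 8.67e-06). Ordered by log2 FC from the lowest, it was number 16 of 18166 genes in QDBS and number 13 in YDBS. It was the only fibrinogen gene outside the dimmest 40% of genes by mean signal over the 9 arrays.

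Fgg, the gamma chain, varied most among the control rats, with 6.67, 3.71 and 5.63 in replicates 1, 2 and 3. The QDBS arrays had 2.31, 2.06 and 2.24 and the YDBS arrays 2.26, 2.49 and 2.40. The control SD of 1.50 was the largest of any group of these 10 genes, and even the low control replicate 2 stayed 1.22 above the highest model array. The FC was -8.77 in QDBS (log2 FC -3.13, standard error 0.54, limma FDR = 0.00115), number 3 of 18166 genes, and -7.73 in YDBS (log2 FC -2.95, limma FDR = 0.00151), number 5. Its size rested on single control rats: log2 FC was -3.95 in QDBS and -3.77 in YDBS without control replicate 2, and -2.47 and -2.28 without control replicate 1. With the plain test between a pair of groups that the methods of the study name, the FDR of Fgg was 0.0798 in QDBS and 0.0838 in YDBS, which ended its calls.

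Fga, the alpha chain, was dim in every array and below the median signal of each. Its signals were 3.28, 3.33 and 3.68 in the control arrays, 2.50, 2.52 and 2.75 in the QDBS arrays and 2.62, 2.49 and 2.75 in the YDBS arrays. All model arrays lay below all control arrays, by 0.53 or more. The log2 FC was -0.84 in QDBS (standard error 0.14, limma FDR = 0.00103) and -0.81 in YDBS (limma FDR = 0.00119), under a fold of 2, and past it (-1.06 and -1.02) with arrays centred on their 75th percentiles. RMA values can understate the change of a dim gene, and so the sizes of the falls of Fga, Fgb and Fgg were not ranked against one another.

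F2 encodes prothrombin. It had 4.82, 4.43 and 4.62 in the control arrays, 3.11, 2.99 and 3.01 in the QDBS arrays and 3.02, 2.66 and 3.11 in the YDBS arrays. Between the lowest control and the highest model array lay 1.32, and the spread within groups was small (SD 0.20 in control, 0.063 in QDBS and 0.24 in YDBS). The FC was -3.01 in QDBS (log2 FC -1.59, standard error 0.15, limma FDR = 2.27e-05) and -3.24 in YDBS (log2 FC -1.70, limma FDR = 1.28e-05).

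F9, which encodes the factor lacking in haemophilia B, lay below the median signal of every array. Its signals were 2.89, 2.51 and 3.14 in the control arrays, 2.39, 2.21 and 2.13 in the QDBS arrays and 2.08, 2.31 and 2.31 in the YDBS arrays. The groups did not overlap, but only 0.12 separated control replicate 2 from the highest model array. The log2 FC was -0.60 in QDBS (standard error 0.16, limma FDR = 0.0132) and -0.61 in YDBS (limma FDR = 0.0112), and the FDR was 0.0669 and 0.0802 after centring of each array on its median. The log2 FC was -0.77 and -0.78 without control replicate 2.

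F5, the cofactor gene, was bright in every array and above the array median in all 9. Its protein is carried in platelets as well as in plasma. Its signals were 8.85, 8.39 and 8.70 in the control arrays, 9.29, 8.69 and 8.85 in the QDBS arrays and 9.92, 9.41 and 8.75 in the YDBS arrays. Control and model arrays overlapped, and YDBS replicate 3 lay below control replicate 1. The log2 FC was 0.29 in QDBS (standard error 0.27, limma FDR = 0.374), with a 95% confidence interval of -0.29 to 0.88. It was 0.71 in YDBS (95% confidence interval 0.12 to 1.30, limma FDR = 0.0484), higher at any fold as were 20.5% of all genes there and 20% in QDBS. That FDR rose past 0.05 with several alternatives (0.135 without control replicate 2), whereas without YDBS replicate 3 the log2 FC was 1.02 (limma FDR = 0.00721) and F5 was called up-regulated. The mean signal of 10 platelet markers was 9.65 to 9.91 in the control arrays, 8.32 to 9.04 in QDBS and 8.97 to 9.82 in YDBS, and their log2 FC had a median of -1.34 (QDBS) and -0.62 (YDBS), while that of F5 was positive in both models. The marker means were 9.04, 8.32 and 8.73 in QDBS replicates 1, 2 and 3 and 9.82, 9.55 and 8.97 in YDBS replicates 1, 2 and 3. The rats of each model thus stood in the same order for F5 and for these markers. In the control group the order was reversed: the marker means were 9.65, 9.91 and 9.66 in replicates 1, 2 and 3, and F5 was lowest in replicate 2. These orders of 3 rats in each group are only a description, and control replicates 1 and 3 hardly differed in the marker means. The part of platelets in the values of F5 was not tested.

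**Figure D2:**
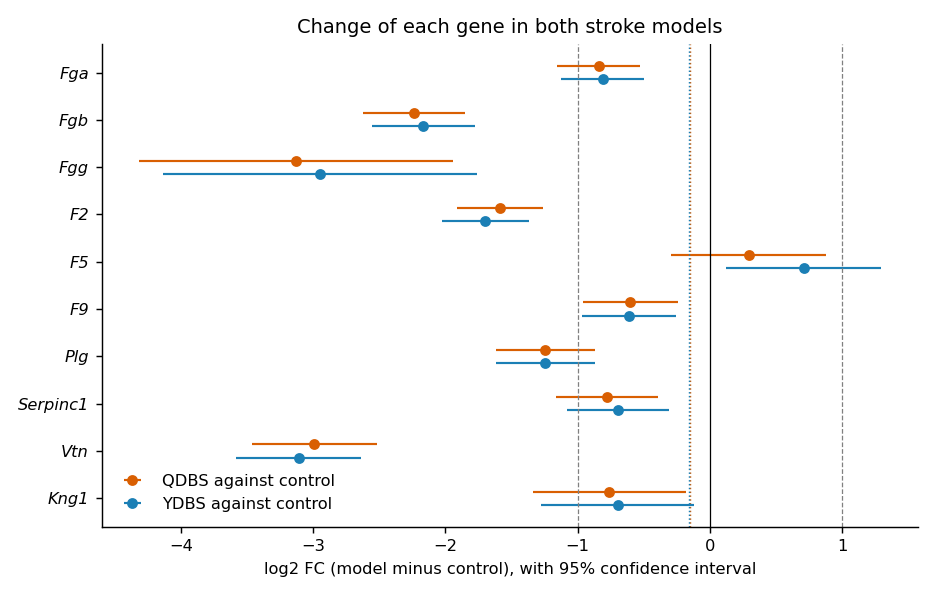
log2 FC of each gene (horizontal axis, model minus control) with its 95% confidence interval from limma, in QDBS and in YDBS; dashed lines mark a fold of 2 and dotted lines the median of all genes. The intervals of F5 lie around or above 0, and those of the other 9 genes below it, from Kng1 (-0.76 and -0.70) to Fgg (-3.13 and -2.95) and Vtn (-2.99 and -3.11).

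Serpinc1, the inhibitor in this group of genes, had 3.21, 3.98 and 3.59 in the control arrays, 2.69, 2.95 and 2.81 in the QDBS arrays and 2.95, 2.93 and 2.81 in the YDBS arrays. Here control replicate 2 was the highest control array, unlike in F9, and the closest approach of the groups was 0.25. The log2 FC was -0.78 in QDBS (standard error 0.18, limma FDR = 0.00554) and -0.69 in YDBS (limma FDR = 0.00926). It was -0.58 and -0.50 without control replicate 2, and the FDR with the test of the methods was 0.094 and 0.102.

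Plg, the source of plasmin, had 4.67, 5.03 and 4.78 in the control arrays, 3.22, 3.79 and 3.74 in the QDBS arrays and 3.56, 3.74 and 3.45 in the YDBS arrays. The groups were separated by 0.88 and the FC was -2.37 in each model (log2 FC -1.25 in QDBS and -1.24 in YDBS, standard error 0.17, limma FDR = 0.000255 and 0.000235). Like Serpinc1, it was highest in control replicate 2, the control array that was lowest for 7 of the 10 genes.

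Vtn, vitronectin, had the widest gap of all 10 genes. Its signals were 6.37, 5.58 and 6.24 in the control arrays, 2.99, 3.10 and 3.14 in the QDBS arrays and 3.01, 2.59 and 3.27 in the YDBS arrays. The lowest control array exceeded the highest model array by 2.32 on the log2 scale. The FC was -7.95 in QDBS (log2 FC -2.99, standard error 0.22, limma FDR = 4.78e-06) and -8.64 in YDBS (log2 FC -3.11, limma FDR = 3.5e-06), numbers 5 and 3 of 18166 genes.

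Kng1 lay below the median of every array, and its signals of 2.07, 1.04 and 2.36 in the control arrays placed control replicate 2 among the model arrays. These had 1.11, 1.09 and 0.99 in QDBS and 1.16, 1.11 and 1.11 in YDBS. The log2 FC was -0.76 in QDBS (standard error 0.26, limma FDR = 0.0375) and -0.70 in YDBS (limma FDR = 0.0496). Without control replicate 2 it was -1.15 and -1.09 (limma FDR = 5.52e-05 and 7.25e-05) and the gene was called lower in both models. Without control replicate 1 the limma FDR was 0.107 in QDBS and 0.136 in YDBS. Leaving out any single array other than control replicate 2 gave a limma FDR of 0.0513 to 0.13 in QDBS. The FDR there was 0.115 with array median centring, 0.127 with quantile normalization and 0.223 with the test of the methods. The related Kng2 had no cluster with a single symbol, so the members of this family could not be compared.

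Signal level went with the direction of change in these arrays. By mean signal over the 9 arrays, 8 of the 10 genes belonged to the dimmest 40% of all genes, all but Fgb and F5. That mean takes in the 6 model arrays, so a fall itself moves a gene into this share: Vtn, Fgg, Plg and F2 had control means of 6.07, 5.33, 4.83 and 4.63. The split by signal is therefore partly fixed by the changes and is given as a description. The median log2 FC of that share of genes was -0.28 in QDBS and -0.29 in YDBS, against 0.08 and 0.07 in the brighter genes. Among the 7267 dimmest genes 28.1% were lower at a FDR under 0.05 at any fold in QDBS and 31.1% in YDBS, and Fga, F9, Serpinc1 and Kng1 were among them in both models. The median log2 FC of the 10 genes was -1.04 in QDBS and -1.03 in YDBS. In terms of position on the array, 6, 4 and 6 of the genes lay above the array median in control replicates 1, 2 and 3, and only F5 did in each of the 6 model arrays.

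**Figure D3:**
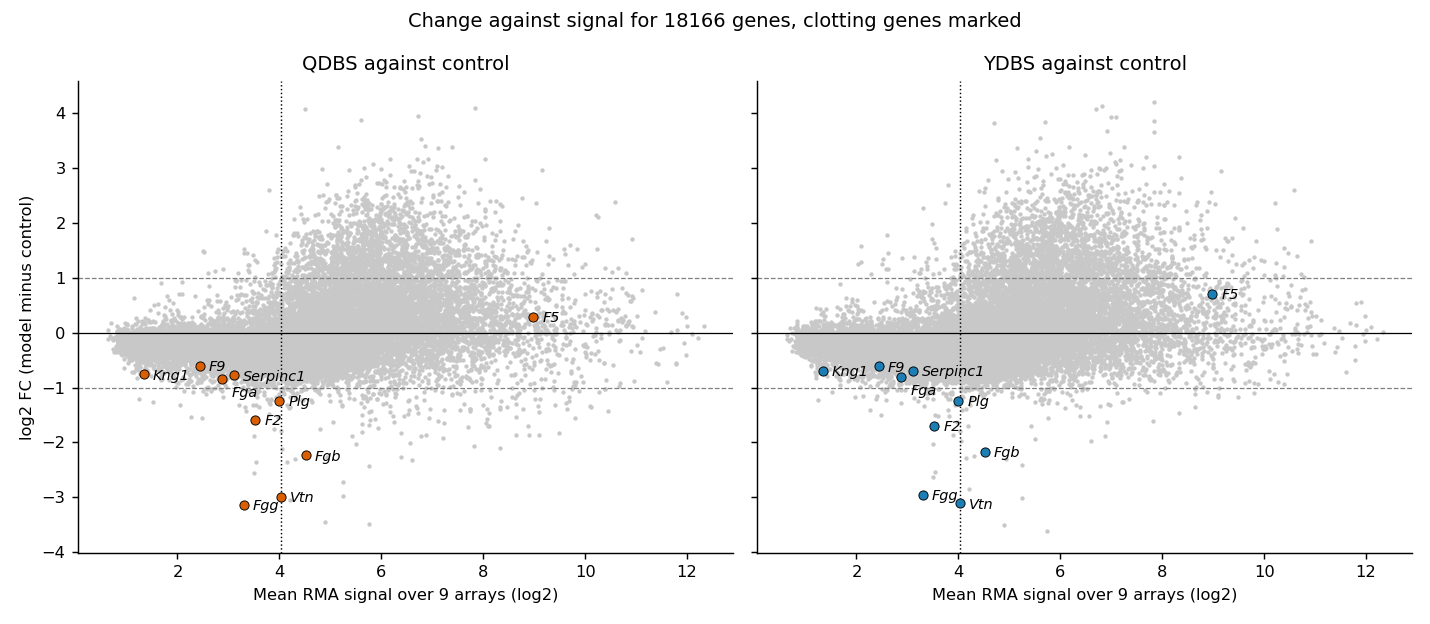
log2 FC (vertical axis, model minus control) against mean RMA signal over the 9 arrays (horizontal axis) for 18166 genes in grey, with the 10 clotting genes in colour; dashed lines mark a fold of 2 and the dotted line the upper limit of the dimmest 40% of genes. Fgg, Vtn, Fgb, F2 and Plg lie below the cloud or at its lower edge at their signal, Fga, F9, Serpinc1 and Kng1 in its lower part or at that edge, and F5 on the bright side above 0.

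The 2 models were compared directly, since QDBS and YDBS rats differed in pretreatment. None of the 10 genes was called between them, and none reached an unadjusted p under 0.05 in limma, which called 0.33% of all genes. The test that the methods name called none of them either. For the 9 genes other than F5 the log2 FC of QDBS against YDBS was at most 0.18 in size, reached in Fgg, with FDR of 0.933 to 0.999 from limma. Their 95% confidence intervals lay between -1.37 and 1.01, with both extremes in Fgg, and for Vtn the interval was -0.35 to 0.60. The log2 FC of F5 was -0.42, with an interval of -1.003 to 0.17 (limma FDR = 0.697). Intervals of this width leave room for differences between the models, and the lack of a call does not show that they are alike.

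Without control replicate 2 the log2 FC in QDBS and YDBS was -0.89 and -0.86 for Fga, -2.43 and -2.36 for Fgb, -1.69 and -1.80 for F2, -1.14 in each for Plg, and -3.23 and -3.35 for Vtn, and none of these 5 genes gained or lost a call.

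Within groups the 10 genes did not vary as one. The mean deviation of the 10 genes from their group means was -0.36 in control replicate 2, 0.18 in each of the other controls and between -0.05 and 0.06 in the model arrays. Control replicate 2 was the lowest control array for Fgb, Fgg, F2, F5, F9, Vtn and Kng1, control replicate 1 for Fga, Plg and Serpinc1. Across the 9 arrays the deviation of each gene was set against the mean deviation of the other 9 genes, as a description over points that share their arrays. The correlation was 0.942 for Kng1, 0.860 for Fgb, 0.714 for Vtn and 0.698 for Fgg, 0.217 for F5, and -0.596 for Plg and -0.835 for Serpinc1. These values lean on control replicate 2, in which Plg and Serpinc1 lay above their group means while Fgb, Vtn, Fgg and Kng1 lay below theirs.

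**Figure D4:**
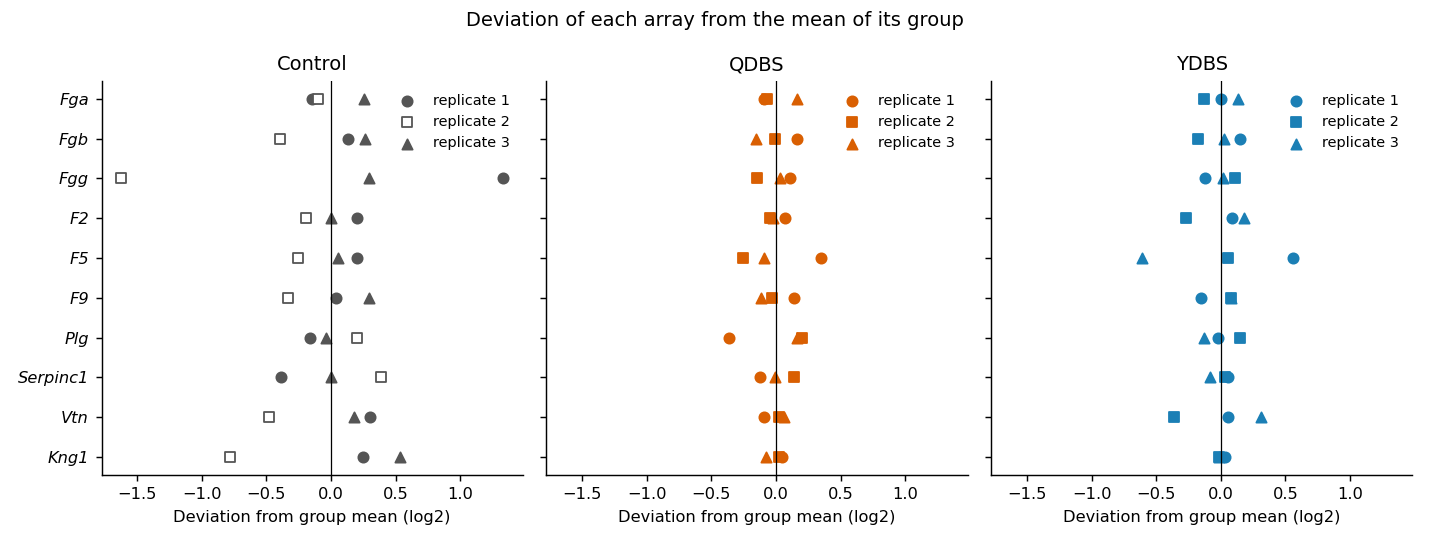
Deviation of each array from the mean of its group (horizontal axis, log2) for each gene in the control, QDBS and YDBS groups; circles, squares and triangles are replicates 1, 2 and 3, and open squares control replicate 2. Control replicate 2 lies to the left for 8 genes that include Fgg and Kng1 and to the right for Plg and Serpinc1. The model arrays deviate most for F5 in YDBS (-0.61 to 0.56), followed by Plg in QDBS replicate 1 and Vtn in YDBS replicate 2 (-0.36 each).

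The genes whose deviations were most like the mean of the 10 over 9 arrays had correlations of 0.985 to 0.998: Tcf20, Ywhaq, Rpl7, Usp7, Naa30, Usp24, Clec4a1, Smarca5, Wdr43 and Glce. They were picked from all genes by this correlation, and the mean deviation was largest in size in control replicate 2 (-0.36). That all of them were lowest in this array among the control arrays (Usp7 had 5.86, 4.71 and 5.89) therefore follows from the choice. Like F5 and unlike the other 9 clotting genes, they had a positive log2 FC in both models (2.37 and 2.08 for Usp7).

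Further genes of clotting that the liver makes were lower as well, mostly at a fold under 2: 14 of 17 in QDBS and 15 of 17 in YDBS had a FDR under 0.05. All 17 measured genes of that list had a negative log2 FC in both models, with medians of -0.75 in QDBS and -0.72 in YDBS, and 15 of 17 had model arrays wholly below the control arrays in each model. The median log2 FC of all genes was -0.15 in QDBS and -0.16 in YDBS. Of all genes 22.9% in QDBS and 25.3% in YDBS were lower at a FDR under 0.05. The shares wholly below control were 31.3% and 33.3%, and those called lower 1.36% and 0.919%. In QDBS 2 of 17 were called lower and none higher, Serpind1, which encodes heparin cofactor II (log2 FC -1.30, limma FDR = 1.39e-05), and Fgl1, a fibrinogen-like protein of the liver (-1.07). In YDBS 3 of 17 were called lower and none higher, Serpind1 (-1.52), Hrg, histidine-rich glycoprotein (-1.15), and Cpb2, the precursor of a carboxypeptidase that slows fibrinolysis (-1.07). Serpind1 had 4.72, 4.70 and 4.82 in the control arrays and 3.15 to 3.52 in the 6 model arrays, and so did not share the low value of control replicate 2. Without that array Cpb2 was called lower in QDBS as well (-1.21) and Fgl1 in YDBS (-1.09). F7 and F10, whose products act beside factor IX in the cascade, stood at -0.75 and -0.57 in QDBS and at -0.75 and -0.67 in YDBS on the same scale.

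Clotting genes that blood cells or vessel cells express were set beside them, without a test of the difference between the lists. Of 13 measured genes 11 had a negative log2 FC in QDBS and 10 in YDBS (medians -0.35 and -0.12). The medians of all genes were -0.15 and -0.16, so negative values were common, and the list was not below all genes in YDBS. In QDBS 5 genes and in YDBS 4 were lower at a FDR under 0.05. The share over all genes was 22.9% in QDBS and 25.3% in YDBS. In QDBS 1 was called lower and none higher, Vwf, von Willebrand factor of endothelium and platelets (log2 FC -1.70, limma FDR = 0.00114), which had -0.87 in YDBS. In YDBS none was called lower and 2 were called higher: Serpinb2, plasminogen activator inhibitor 2 (1.97, limma FDR = 0.00243), and F13a1, the A chain of factor XIII (1.13, limma FDR = 0.015), with 0.36 and 0.15 in QDBS. Over all genes 9.62% were called higher in QDBS and 10.4% in YDBS. Direct tests between the models gave a FDR of 0.108 for Serpinb2 and 0.237 for F13a1. Serpinb2 had 5.62, 4.64 and 3.76 in the YDBS arrays against 2.29 to 3.04 in the control arrays, so the YDBS rats differed widely among themselves. Without control replicate 2 the same genes of this list were called, while 8 of 13 had a negative log2 FC in each model and 4 in QDBS and 2 in YDBS were lower at a FDR under 0.05.

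Among receptors of the proteins followed here, 3 of 12 were called lower in QDBS and none higher, all of them expressed by rodent platelets. These were Gp1ba, which binds thrombin and von Willebrand factor (log2 FC -1.40), Itga2b, of the platelet fibrinogen receptor (-1.35), and F2rl2, the thrombin receptor PAR3 (-1.18). Gp1ba and Itga2b also belong to the platelet markers below, so their calls count in both lists. In YDBS none was called lower and Itgam, a leukocyte integrin chain that binds fibrinogen, was called higher (1.45, limma FDR = 0.000183). For comparison, 1.36% of all genes were called lower in QDBS and 0.919% in YDBS, and 9.62% and 10.4% were called higher. The call of F2rl2 ended without control replicate 2 (-0.96), and with that array left out the integrin chain Itgb5 was called lower in YDBS (-1.02). Of 6 genes for the vitamin K cycle and secretion, Lman1, the cargo receptor that carries factors V and VIII out of the endoplasmic reticulum, was called higher in both models (1.65 and 1.47), with 5.07, 3.46 and 5.27 in the control arrays. Without control replicate 2 its log2 FC was 1.09 in QDBS and 0.90 in YDBS, where the call ended. Mcfd2, the partner of Lman1, had 0.96 and 0.80, and Furin, a protease that trims clotting factor precursors, was called lower in QDBS (-1.01) and had -0.69 in YDBS. Of 11 liver transcription factors none was called in QDBS, where Cebpa had -0.86 and Foxa2 -0.71, and 1 in YDBS, Hnf4a (-1.05, limma FDR = 0.00226), which had -0.93 in QDBS. Its call ended without control replicate 2 (-0.92 in YDBS). All 11 had a negative log2 FC in both models, with medians of -0.71 and -0.60, against -0.15 and -0.16 over all genes. Cebpa was by far the brightest of them, with a control mean of 7.40 against 5.03 for Foxa3, the next. Which cells gave the signal of Cebpa was not tested.

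Marker lists of cell types were set beside these values. Among all genes 1.36% were called lower in QDBS and 0.919% in YDBS, 9.62% and 10.4% higher, and 0.33% between the models. Of 19 hepatocyte markers 16 were called lower in each model and none higher, with medians of -1.56 in QDBS and -1.55 in YDBS. Their mean signal was 4.92 to 5.27 in the control arrays and 3.37 to 3.53 in the model arrays, and it was lowest in control replicate 2 among the controls, in which 13 of 19 were lowest. Alb, albumin, the most abundant product of hepatocytes, had 5.31, 4.73 and 5.27 in the control arrays and 3.02 to 3.47 in the model arrays, and Ttr, transthyretin, had 7.37, 7.30 and 7.10 and 4.11 to 4.53. Alb and Ttr were thus above the array median in the control arrays of a sample labelled blood. Most other markers of the list also had control means above it, such as 7.22 for Cyp2e1, 7.09 for Ass1, 6.98 for Hp and 5.81 for Hpx. Only Ahsg, Apoh, Tdo2 and Fabp1 had control means below it, of 2.85, 3.23, 3.24 and 3.50. The part of hepatocyte RNA in the values of the clotting genes was not tested. Cyp2e1, a liver cytochrome P450, had the largest fall of the list (log2 FC -3.46 in QDBS and -3.51 in YDBS). Of 12 leukocyte markers 5 were called higher in QDBS and 6 in YDBS and none lower, and their mean signal was 7.47 to 7.97 in the control arrays and 8.73 to 8.92 in the model arrays. Ptprc, the pan-leukocyte antigen CD45, had 7.67, 6.16 and 7.69 in the control arrays and 10.02 to 10.30 in the model arrays, so that its log2 FC was 2.96 (QDBS) and 2.95 (YDBS), or 2.46 and 2.45 without control replicate 2. Of 7 erythroid markers 3 were called lower in QDBS and none in YDBS, among them Gata1 (-1.41), with mean signals of 6.72 to 7.13 in the control arrays, 6.12 to 6.31 in QDBS and 6.61 to 7.34 in YDBS. Without control replicate 2, 5 of 7 were called lower in QDBS, while of the hepatocyte markers 16 were called lower in QDBS and 15 in YDBS and of the leukocyte markers 4 and 6 were called higher. Of 10 platelet markers 6 were called lower in QDBS, again with Gp1ba and Itga2b among them, and none higher. In YDBS 1 was called lower and 1 higher. Between the models, Selp, the platelet and endothelial P-selectin, and Csf3r, the receptor of a neutrophil growth factor, were called lower in QDBS than in YDBS (log2 FC -1.75 and -1.03), and no other gene of these lists was called. Whether these marker changes reflect cell makeup, and their part in the values of the clotting genes, was not tested.

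**Figure D5:**
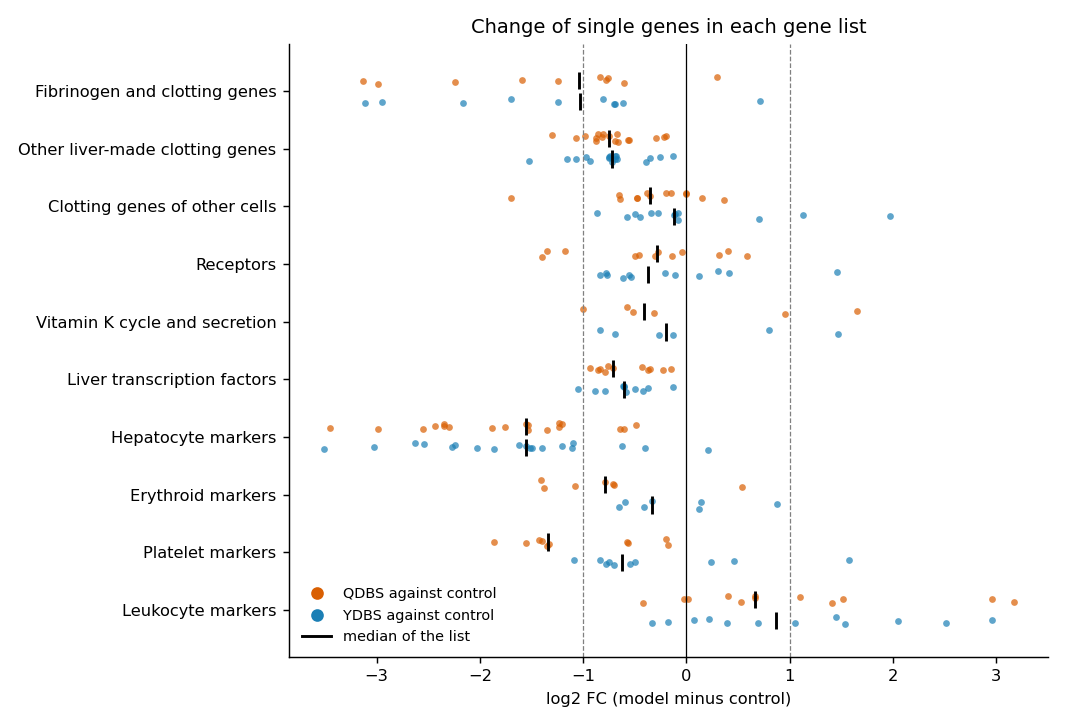
log2 FC (horizontal axis, model minus control) of single genes in each list for QDBS and YDBS; each point is a gene, vertical placement within a row only separates points, black bars are medians and dashed lines mark a fold of 2. The clotting genes followed here (medians -1.04 and -1.03) and the hepatocyte markers (-1.56 and -1.55) lie to the left in both models, the leukocyte markers (0.67 and 0.87) to the right.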

How the data were processed

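Rat Gene 2.0 ST arrays (Affymetrix) were hybridised with blood RNA of 9 rats, 3 in each group; the labels name no batch. Per the labels, the authors computed the deposited log2 values with Robust Multi-chip Average (RMA) in Affymetrix Expression Console 1.1, which corrects background, normalizes quantiles and summarises probes, and this compresses changes of dim genes. The labels name a kit for 3' labelling, while the array is built for sense targets; an effect of this was not tested. Precision is limited by the number of arrays, and no detection p-values were used here.

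Of 30347 transcript clusters 19086 were annotated and 18511 had exactly 1 symbol; 18394 were matched to a current symbol by Entrez ID, and the brightest cluster stood for each of 291 genes that had several, which left 18166 genes. The 575 clusters with several symbols were left out. Dim genes were kept.

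The main test was limma 3.58.1 (R 4.3.3) on all 9 arrays together, with a mean for each of 3 groups (6 residual degrees of freedom before moderation), with Benjamini-Hochberg FDR over 18166 genes. On simulated data the fit was tested for recovery of known changes. Calls took the criteria of the study, a FDR below 0.05 with a log2 FC above 1 in size; its test for a pair of groups was run as an alternative. Genes and lists were chosen with earlier results of these data known. Of each other list, up to 4 called genes in each direction were named, or the 2 brightest where none was called, and the 10 genes most like the mean deviation. F7, F10, Mcfd2, Itgb5, Alb and the values a named gene had in the other model were added after their values were seen. Replicate numbers did not pair the rats. Alternatives were other scalings, no dim genes, the mean of all clusters, fits of the groups compared, other variance models, a replicate block and leaving out each array; for the gene lists, leaving out control replicate 2 was added after the data were seen. Promoter windows came from RefSeq, GRCr8.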

Additional observations from a re-analysis of the deposited data

How the results depend on the processing

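Without the dimmest 40% of genes only Fgb and F5 of the 10 genes could be tested, and 1, Fgb, was called lower in each model, in place of 5, and that 1 gene was lower at a FDR under 0.05 at any fold, in place of 9. Fgb passed that filter through its control arrays, so its call there is no further support. Under the other alternatives 4 to 6 genes were called in each comparison against control. Leaving out each array in turn gave 5 to 6. By FDR alone the 9 genes became 5 in each model with the test of the methods, 7 in each with median centring (without F9 and Kng1), 7 in QDBS and 6 in YDBS with quantile normalization (without F9 and Kng1, and Serpinc1 in YDBS), and 7 to 9 in QDBS and 8 to 9 in YDBS when an array was left out. Over the 20 results of single genes against control, 355 alternative values stayed on the same side of the call by FDR and fold, 7 gained a call (Fga with 75th percentile centring, Kng1 with array weights and without control replicate 2, F5 in YDBS without YDBS replicate 3) and 2 lost it (Fgg with the test of the methods); none changed direction. Several of these alternatives cannot change the log2 FC, so the lack of a change of direction was partly fixed in advance. Among them were the mean of all clusters, as each gene had 1, the replicate block and the test of the methods. Leaving out an array of the model not compared also kept the log2 FC. The log2 FC of Fgb ranged from -2.46 to -2.07 in QDBS and from -2.37 to -1.96 in YDBS, and that of Vtn from -3.23 to -2.83 and from -3.35 to -2.91. Between the models 0 genes were called under every alternative. Scaling moved the median of all genes from -0.15 in QDBS to 0.01 with array medians and -0.38 with 75th percentiles, and calls over all genes from 1747 higher and 247 lower to 2191 and 147 or 1254 and 618. In YDBS 1892 higher and 167 lower became 2445 and 68 or 1415 and 550. With a replicate block 5 genes were called in each model and no call changed; rats of the same number correlated at -0.17 to 0.196 in their deviations and others at -0.13 to 0.217, so the numbers are only names. Dim signals limit Kng1, F9, Fga and Serpinc1 most, and their folds may be understated.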
